A study of Mus musculus with 9 samples.

Results

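Chromatin genes were followed through the first hour of parathyroid hormone (PTH) in OB-6 cells, a mouse osteoblastic line. The members were the probe sets with a single platform gene symbol that begins with Smarc, Hdac, Kdm, Kmt or Cbx, or with Brd, Chd or Smc followed by a digit. These were 59 of the 12488 probe sets on the array and stood for 45 genes in 8 families. The study comprised 9 one-colour arrays of total RNA from cells taken at 0, 30 and 60 min of PTH, with 3 arrays (replicates a, b and c) at each time. The groups carry no genotype or second agent in the labels, and the sources used here do not give the dose of PTH. No culture kept for 30 or 60 min without PTH was analysed here, so every change is against the start of treatment. Nothing in the labels states whether the replicates were separate cultures, and all p-values therefore speak of array-to-array spread only, part or all of which may be technical. In such bulk RNA, fewer cells that express a gene and less RNA per cell cannot be told apart.

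PTH acts on osteoblasts through a receptor coupled to cAMP, and its early targets are activated at chromatin. SMC proteins are long coiled-coil ATPases that work in pairs. SMC2 with SMC4 forms the core of condensin, which compacts chromosomes, SMC3 belongs to cohesin, which holds DNA loops and sister chromatids, and SMC6 belongs to a complex of DNA repair. The Smarc and Chd families hold ATPases that slide or evict nucleosomes, together with the subunits of the SWI/SNF (BAF) complex. Cbx and Brd proteins read methylated and acetylated histones, Hdac enzymes remove acetyl groups and Kdm enzymes remove methyl groups. The Kmt family is named for enzymes that add methyl groups, and not every member need be one. Hdac enzymes are known in bone chiefly as corepressors of osteoblast transcription factors.

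Fos, an immediate-early gene that PTH is known to induce, lay at intensities of 27.5 to 34.4 at 0 min, 618 to 815 at 30 min and 128 to 220 at 60 min. Among osteoblast matrix genes, the brighter probe set of Col1a2 had a 0 min mean of 5386 and Sparc one of 3389. The probe set of the PTH receptor gene Pth1r lay below the filter, with a mean of 15.7 at 0 min. Of the 10 genes in the osteoblast list 6 had a probe set and 5 were tested. At 60 min 0 of its 8 tested probe sets fell and 1 rose, of Col1a1, beside 4.35% of all. That call was lost without 0 min replicate a or b, any 30 min array or 60 min replicate b or c. By limma's unadjusted p under 0.05, 3 of the 8 passed, beside 32.8% of all. Their list summed to 14248 to 15906 at 0 min and 16369 to 19499 at 60 min. The summed intensity of the haematopoietic and osteoclast markers was 1828 to 2058 at 0 min and 1878 to 2296 at 60 min. Of the 7 genes in that list 6 had a probe set past the filter. The defining marker Ptprc stood at means of 1.23 to 5.87 over its 3 probe sets at 0 min. At 60 min 0 of the 6 tested marker probe sets changed (0 with an unadjusted p under 0.05). Of 4 tested skeletal muscle marker probe sets 1 rose at 60 min, that of Ckm (0.86, limma adjusted p = 0.0197, lost without each 0 min array), and the summed level of that list ran from 320 to 439 at 0 min and from 385 to 534 at 60 min. The ratio of the 3 prime to the 5 prime control probe set of Gapdh, a sign of RNA integrity, ran from 0.702 to 0.859 at 0 min, 0.666 to 0.818 at 30 min and 0.719 to 0.783 at 60 min. The same ratio of Actb was more spread, from 0.341 to 0.809 at 0 min, 0.302 to 0.657 at 30 min and 0.563 to 0.874 at 60 min, with the highest value on 60 min replicate b, and its part in the results was not tested. One array, 60 min replicate b, stood apart: its correlations with the others had a median of 0.938, and those of the rest had medians of 0.954 to 0.967.

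To enter the tests, a probe set had to exceed an intensity of 44.69 (the 40th percentile) on 3 or more of the 9 arrays. Of the 59 members 47 probe sets from 39 genes passed, and 0 of them passed through the arrays of a single time alone. The other 12 ran between 0.4 and 52.0 on all arrays. They were the only probe sets of Brd3, Cbx7, Chd1l, Chd7, Kdm5a and Kdm5d, and further probe sets of Brd7 (2 of them), Cbx1, Kmt5c, Smarca4 and Smarcd2. Tests were made with limma on log2(intensity + 11.8), and all fold changes below are on that scale, where changes at low intensity look smaller than they are. Calls rest on p-values adjusted by Benjamini and Hochberg over all 7884 tested probe sets, with 0.05 as the threshold.

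After 60 min of PTH 13 member probe sets from 11 genes had fallen and 0 had risen. They were all 4 SMC probe sets (Smc2, Smc3, Smc4 and Smc6), both probe sets of the remodelling ATPase Smarca5 and both of Smarcad1, and those of Chd1, Kmt2e, Kdm3a, Kdm6a and 1 of Kmt2a. The 13 were 27.7% of the tested members, beside 8.73% of all tested probe sets that fell, and the 0 rises stood beside 4.35% of all that rose. By limma's unadjusted p under 0.05, 18 members (38.3%) were lower beside 18.4% of all tested probe sets, and 3 (6.38%) were higher beside 14.5%. The median log2 fold change was -0.23 over the tested members and 0.03 over all tested probe sets. At 30 min 3 members had fallen, Smc3, Smc4 and Smc6, or 6.38% of those tested beside 0.457% of all, and 0 had risen beside 0.482% of all. By unadjusted p under 0.05 at 30 min, 12 members (25.5%) were lower beside 9.75% of all, and 1 (2.13%) was higher beside 8.16%. The test for any change over the 3 times called 6 members beside 4.64% of all probe sets, namely Smc3, Smc4, Smc6, Chd1, Kmt2e and the brighter probe set of Smarca5. Between 30 and 60 min 0 members changed beside 0.0254% of all, and the lowest adjusted p was 0.529 (1 member with an unadjusted p under 0.05, beside 9.07% of all).

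Single arrays bore on these counts. The 13 falls at 60 min became 2 without 0 min replicate a or b, 6 without 0 min replicate c and 8 without 60 min replicate b or c. Those shares of members were 4.26%, 4.26%, 12.8%, 17% and 17%, beside 0.583%, 0.875%, 2.37%, 4.73% and 5.9% of all probe sets that fell in the same fits. The 3 falls at 30 min became 0 on leaving out one of the 0 min arrays, 30 min replicate b or c, or 60 min replicate c, and 7 without 30 min replicate a or 60 min replicate b. Without 30 min replicate a these 7 were 14.9% of the members beside 3.12% of all probe sets, and without 60 min replicate b 14.9% beside 4.96%. The 6 calls over the 3 times became 0 on leaving out one of the 0 min arrays, and 2 on leaving out replicate c of 30 or 60 min.

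**Figure D1:**
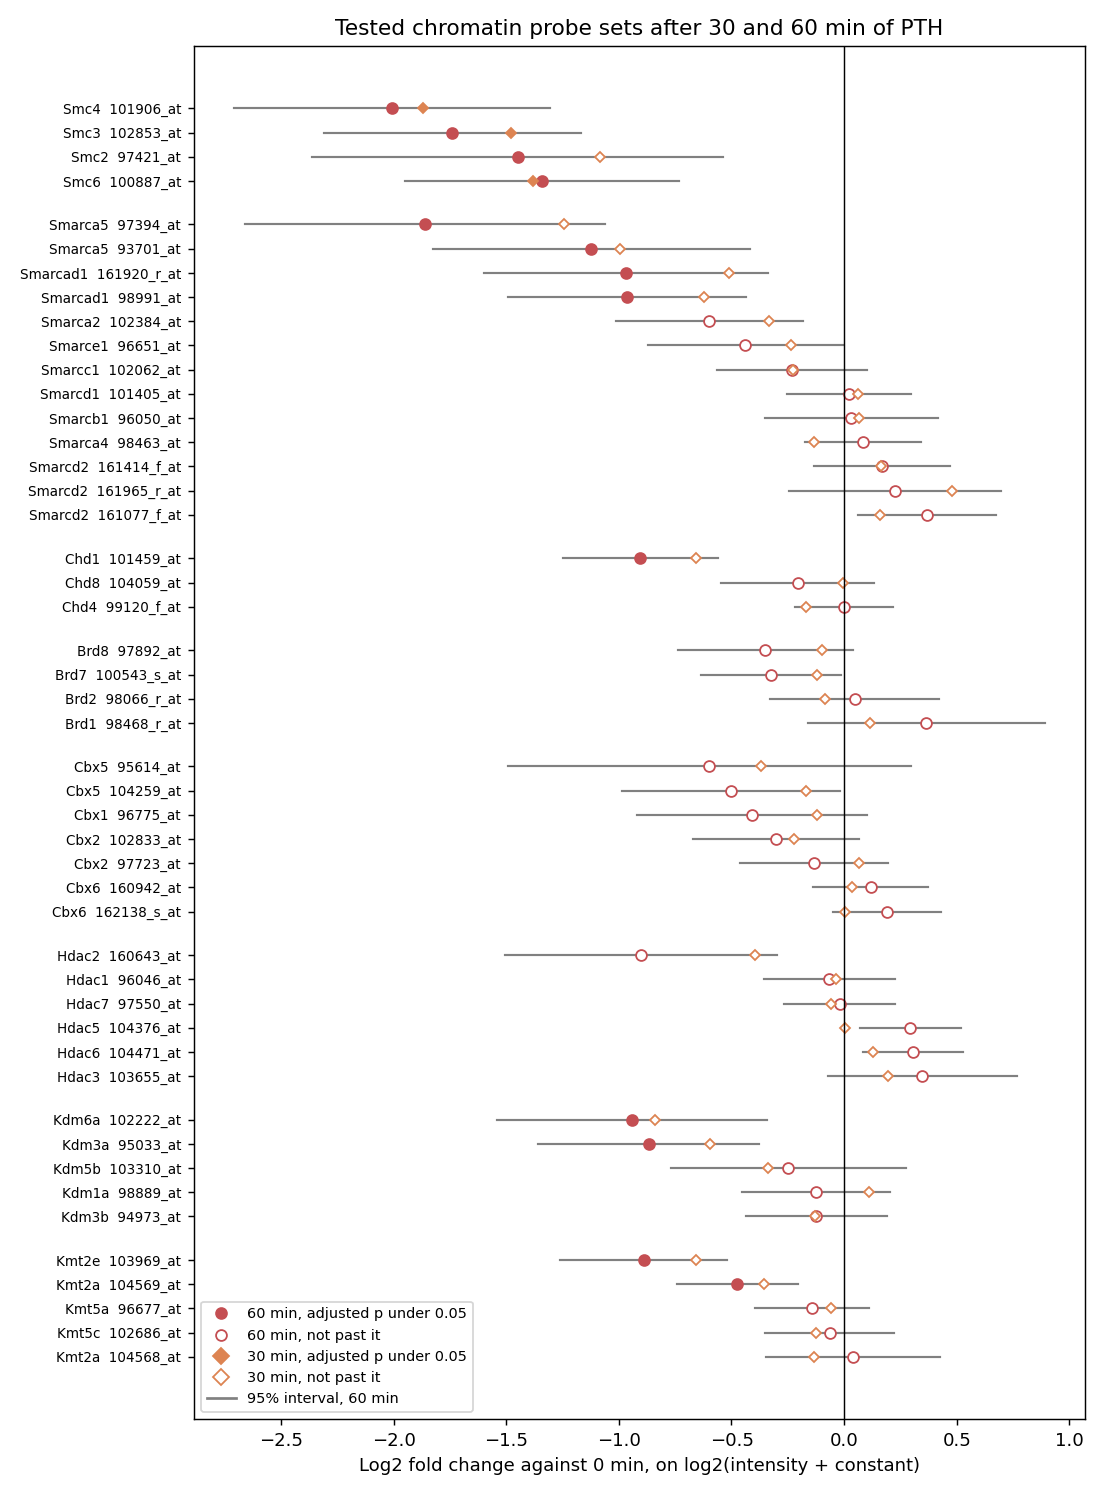
Log2 fold change against 0 min (x axis) of the 47 tested member probe sets, grouped by family, with circles for 60 min, diamonds for 30 min, grey lines for the 95% interval at 60 min and filled symbols for an adjusted p under 0.05. The 4 SMC probe sets lie between -2.01 and -1.34 at 60 min, and every filled symbol lies left of 0.

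All 4 SMC probe sets on the array fell at 60 min, beside 8.73% of all tested probe sets. Smc4, the condensin ATPase, lay at 789, 623 and 569 on 0 min replicates a, b and c, at 329, 107 and 136 at 30 min and at 171, 135 and 158 at 60 min. Every treated array lay below every 0 min array, and 30 min replicate a was the highest of the treated ones. Its log2 fold change was -1.87 at 30 min (SE 0.32, 3.66-fold lower, adjusted p = 0.0276 by limma) and -2.01 at 60 min (SE 0.32, 4.02-fold lower, adjusted p = 0.00786). Its partner Smc2 lay at 301, 288 and 211 at 0 min, at 260, 70.8 and 85.7 at 30 min and at 119, 52.5 and 110 at 60 min. On 30 min replicate a Smc2 stood within the 0 min range, while the other treated arrays lay below it. At 30 min Smc2 stood at -1.08 (SE 0.41, adjusted p = 0.207 by limma, passing without 30 min replicate a), and at 60 min it had fallen (-1.45, SE 0.41, 2.73-fold lower, adjusted p = 0.0438).

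Smc3, the cohesin ATPase, lay at 313, 229 and 291 at 0 min, at 149, 81.3 and 61.5 at 30 min and at 79.7, 81.0 and 63.2 at 60 min. The 60 min arrays lay close together, with a mean of 74.6 ± 9.93 (SD, n = 3) against 278 ± 43.5 at 0 min. Smc3 fell at 30 min (-1.48, SE 0.26, adjusted p = 0.0302 by limma) and stayed low at 60 min (-1.74, SE 0.26, 3.34-fold lower, adjusted p = 0.00733). Smc6, of the repair complex, lay at 229, 202 and 174 at 0 min, at 114, 54.9 and 52.8 at 30 min and at 81.7, 50.4 and 89.2 at 60 min. Treated and untreated arrays did not overlap, and the means at 30 and 60 min were 74.0 ± 34.8 and 73.8 ± 20.6 (SD, n = 3). Smc6 had fallen at 30 min (-1.38, SE 0.28, adjusted p = 0.0481 by limma) and at 60 min (-1.34, SE 0.28, 2.53-fold lower, adjusted p = 0.0162). The differences of the 4 SMC genes between 60 and 30 min had adjusted p from 0.715 to 0.968, with log2 fold changes from -0.37 (95% interval -1.28 to 0.55) for Smc2 to 0.04 (-0.57 to 0.65) for Smc6.

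At 60 min the calls of Smc3 and Smc4 remained with any 1 of the 9 arrays left out, with limma adjusted p of 0.00126 to 0.046 and 0.00124 to 0.0471 over all alternatives. The call of Smc6 was lost without 0 min replicate a or b (range of adjusted p over the alternatives 0.00543 to 0.0746). That of Smc2 was lost without any 0 min array, 30 min replicate c or 60 min replicate b or c, and without the filter, without the variance trend and after cyclic loess (0.0112 to 0.139). At 30 min the calls of Smc3, Smc4 and Smc6 were each lost on leaving out one of the 0 min arrays, 30 min replicate b or c, or 60 min replicate c, and that of Smc6 also on leaving out 60 min replicate a. Their adjusted p at 30 min ran from 0.0022 to 0.184, from 0.000455 to 0.16 and from 0.00521 to 0.251 over the alternatives, and all were lost without the variance trend. Those of Smc3 and Smc6 were also lost without the filter, and that of Smc6 with an added constant of 1.

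**Figure D2:**
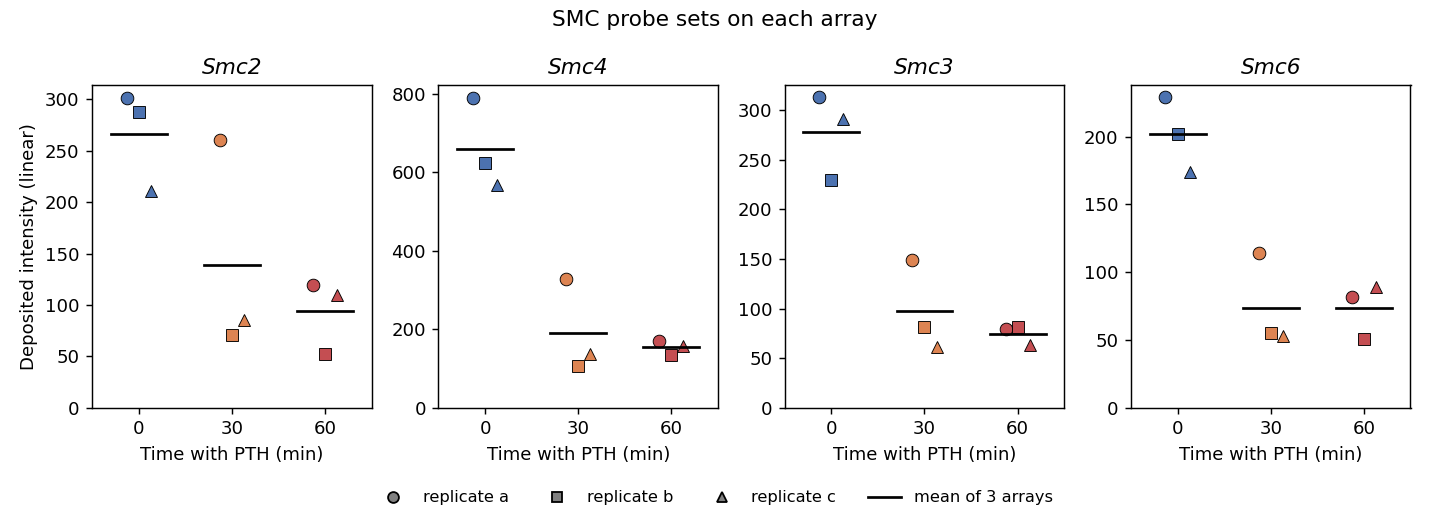
Deposited intensity (linear, y axis from 0) of the 4 SMC probe sets on each array against minutes of PTH, with circles, squares and triangles for replicates a, b and c and bars for the mean of 3 arrays. All 60 min arrays lie below all 0 min arrays, and 30 min replicate a is the highest of the 30 min arrays in each panel.

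The promoters of these genes are given because they moved together and because PTH acts through cAMP, whose nuclear factor CREB binds the cAMP response element. Windows of 250 bases upstream of the RefSeq start (assembly GRCm38.p6) were on hand for Smc2, Smc3 and Smc6. Capitals mark every match, on either strand, to the core of that element (TGACG), the E-box (CACGTG), the TATA box (written as TATAAA), the CCAAT box or the GC box (GGGCGG).
Smc2 (chr4:52438971-52439220, plus strand): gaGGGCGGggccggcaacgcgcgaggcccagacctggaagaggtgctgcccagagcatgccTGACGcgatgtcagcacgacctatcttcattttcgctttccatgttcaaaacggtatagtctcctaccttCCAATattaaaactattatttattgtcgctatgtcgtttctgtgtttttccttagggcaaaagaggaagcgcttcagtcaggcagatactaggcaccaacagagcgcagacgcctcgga
Smc3 (chr19:53600146-53600395, plus strand): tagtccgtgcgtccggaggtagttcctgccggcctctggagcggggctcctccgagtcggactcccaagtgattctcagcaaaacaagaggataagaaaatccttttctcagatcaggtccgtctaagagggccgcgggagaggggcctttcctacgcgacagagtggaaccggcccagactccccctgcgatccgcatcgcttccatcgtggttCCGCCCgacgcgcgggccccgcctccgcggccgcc
Smc6 (chr12:11265636-11265885, plus strand): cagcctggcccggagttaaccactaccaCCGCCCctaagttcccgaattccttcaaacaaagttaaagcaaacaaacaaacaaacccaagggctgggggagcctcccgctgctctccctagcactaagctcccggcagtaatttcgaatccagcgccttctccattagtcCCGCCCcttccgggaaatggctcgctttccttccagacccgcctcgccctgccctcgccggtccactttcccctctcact
The Smc2 window held 1 TGACG, whose first base lay 189 bases before the start, 1 CCAAT and 1 GC box. Those of Smc3 and Smc6 held 1 and 2 GC boxes and none of the other motifs.

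A window was found for 34 of the 45 member genes. The full response element TGACGTCA occurred in 0 of their 46 windows, beside 1.55% of all 32851 promoter windows of the same length. TGACG occurred in 19.6% of the member windows beside 17.8% of all, CACGTG in 6.52% beside 6.02%, TATAAA in 4.35% beside 12.4% and CCAAT in 28.3% beside 33.8%. The GC box occurred in 73.9% beside 32.7%. Bases G and C made up 36.4% (Kdm5d) to 78% (a window of Kmt5a) of the member windows. These shares of windows were not adjusted for base composition. Among the genes with a window, 7 of 8 that fell at 60 min and 20 of 22 other tested genes held a GC box, while 3 of 8 and 5 of 22 held TGACG. TGACGTCA contains TGACG on both strands. These matches describe letters in the windows only.

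Among the remodelling ATPases, Smarca5 fell most. Smarca5 is the ATPase of the ISWI complexes, which space nucleosomes. Its brighter probe set lay at 437, 376 and 367 at 0 min, at 314, 89.1 and 139 at 30 min and at 146, 78.0 and 85.3 at 60 min. Its dimmer probe set lay at 128, 182 and 154, then at 105, 52.8 and 63.1, then at 95.6, 34.3 and 76.0. In both, all treated arrays lay below all 0 min arrays. At 60 min the brighter had fallen 3.63-fold (-1.86, SE 0.36, adjusted p = 0.0142 by limma) and the dimmer 2.18-fold (-1.12, SE 0.32, adjusted p = 0.0435). At 30 min the log2 fold changes were -1.24 and -0.99, with adjusted p of 0.125 and 0.153. The brighter passed at 30 min without 30 min replicate a, and the dimmer without 60 min replicate b and with the 2 groups fitted alone (lowest adjusted p over the alternatives 0.0082 and 0.033). The call of the brighter probe set at 60 min was lost without 0 min replicate a or b (range over the alternatives 0.00235 to 0.0668). That of the dimmer one was lost without any 0 min array, 30 min replicate c or 60 min replicate b or c and under 6 of the other alternatives, among them quantile normalization and cyclic loess (0.0215 to 0.141). The upstream window of Smarca5 is shown beside those of the SMC genes, with the same motifs in capitals.
Smarca5 (chr8:80739460-80739709, minus strand): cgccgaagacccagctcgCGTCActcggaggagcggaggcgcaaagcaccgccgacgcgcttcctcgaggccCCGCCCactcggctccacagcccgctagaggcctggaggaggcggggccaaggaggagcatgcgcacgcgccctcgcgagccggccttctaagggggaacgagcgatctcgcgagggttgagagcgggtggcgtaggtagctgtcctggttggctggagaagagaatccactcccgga
It held 1 TGACG, 232 bases before the start and read on the opposite strand, and 1 GC box.

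Smarcad1, a helicase-like remodeller that acts at DNA breaks and at replicating chromatin, was dim. Its dimmer probe set lay at 73.3, 66.2 and 73.5 at 0 min, at 57.0, 35.6 and 35.9 at 30 min and at 24.8, 40.5 and 28.0 at 60 min. The brighter lay at 109, 94.9 and 158, then at 66.2, 97.2 and 77.1, then at 52.2, 87.4 and 34.1. The 60 min arrays lay below the 0 min arrays in both, and the 30 min arrays of the brighter overlapped them. At 60 min they stood at -0.96 (SE 0.24, adjusted p = 0.0288 by limma) and -0.97 (SE 0.29, adjusted p = 0.0487). Leaving out any 0 min array or 60 min replicate c ended the call of the dimmer (0.0215 to 0.105 over the alternatives). That of the brighter ended without each array but 60 min replicate b (0.0213 to 0.153) and under 7 of the other alternatives, including all 3 other scalings. With the stricter filter of all 9 arrays above 44.69, both Smarcad1 probe sets and the dimmer one of Smarca5 were not tested, which left 1 fall among 10 Smarc probe sets and a median of 0.03 in place of 4 among 13 and -0.23.

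Chd1, a chromodomain ATPase that binds methylated histone tails at active genes, lay at 229, 251 and 230 at 0 min, at 181, 119 and 144 at 30 min and at 132, 114 and 117 at 60 min. All treated arrays lay below the untreated ones. Chd1 fell 1.87-fold at 60 min (-0.91, SE 0.16, adjusted p = 0.00958 by limma) and stood at -0.66 at 30 min (adjusted p = 0.0774), which passed without 30 min replicate a or 60 min replicate b, after quantile normalization and with the 2 groups fitted alone. The call was lost without 0 min replicate a or b (0.0044 to 0.0544 over the alternatives). The other tested Chd genes were not called. Chd4, the ATPase of the NuRD corepressor complex, had means of 1902 ± 88.5 at 0 min and 1899 ± 74.9 at 60 min (SD, n = 3), a log2 fold change of 0.00 with a 95% interval of -0.22 to 0.22. Chd8 stood at -0.21 (-0.55 to 0.13).

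None of the tested Smarc subunits of SWI/SNF was called at 60 min. Over all tested probe sets 8.73% fell and 4.35% rose, so that a lack of calls among so few does not set them apart. By limma's unadjusted p under 0.05, 6 of 13 Smarc probe sets were lower and 1 was higher, beside 18.4% and 14.5% of all. The 4 called probe sets of Smarca5 and Smarcad1 are among the 6. The alternative ATPases of SWI/SNF are Smarca4 and Smarca2. Smarca4 had means of 537 ± 27.4 at 0 min and 570 ± 43.6 at 60 min (SD, n = 3), a log2 fold change of 0.08 (95% interval -0.18 to 0.34). Smarca2 lay at 412, 405 and 369 at 0 min, at 247, 332 and 365 at 30 min and at 304, 193 and 289 at 60 min. Its 0 min arrays lay above all others, and its log2 fold change of -0.60 at 60 min (SE 0.19) had a limma adjusted p of 0.0589, which passed the threshold without 30 min replicate a or 60 min replicate a. The core subunits Smarcb1, Smarcd1 and Smarcc1 stood at 0.03, 0.02 and -0.23, with 95% intervals of -0.35 to 0.42, -0.25 to 0.30 and -0.57 to 0.10. Smarce1, the subunit with an HMG box, stood at -0.44 (-0.87 to -0.01, adjusted p = 0.147). The 3 tested probe sets of Smarcd2 stood at 0.37, 0.22 and 0.17, and the brightest of them had its 60 min arrays (488, 590 and 529) above its 0 min arrays (394, 435 and 406) with an adjusted p of 0.0992.

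**Figure D3:**
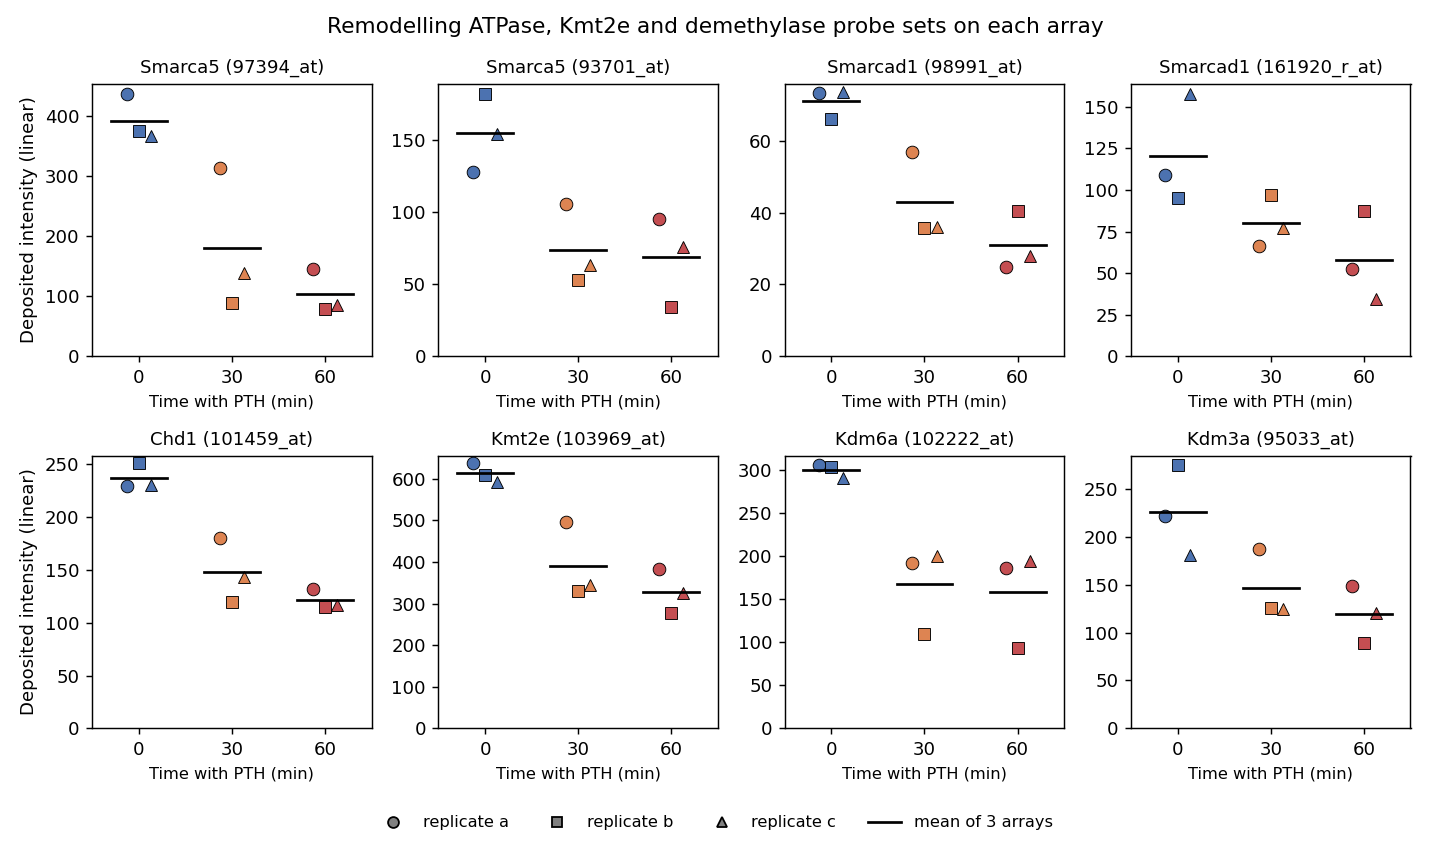
Deposited intensity (linear, y axis from 0) of the fallen Smarca5, Smarcad1, Chd1, Kmt2e, Kdm6a and Kdm3a probe sets on each array against minutes of PTH, with circles, squares and triangles for replicates a, b and c and bars for the mean of 3 arrays. In all 8 panels the 60 min arrays lie below the 0 min arrays.

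Of the Kmt family, Kmt2e and 1 probe set of Kmt2a fell, or 2 of 5 tested probe sets (40%), beside 8.73% of all. Kmt2e lay at 637, 609 and 593 at 0 min, at 497, 330 and 345 at 30 min and at 382, 277 and 325 at 60 min. No treated array reached the 0 min range, and 30 min replicate a again was the highest of them. Kmt2e fell 1.85-fold at 60 min (-0.89, SE 0.17, adjusted p = 0.0132 by limma) and stood at -0.66 at 30 min (adjusted p = 0.0892), which passed without 30 min replicate a or 60 min replicate b and with the 2 groups fitted alone. The call of Kmt2e was lost without 0 min replicate a or b (0.00409 to 0.0668 over the alternatives). The brighter probe set of Kmt2a lay at 323, 330 and 317 at 0 min, at 237, 227 and 289 at 30 min and at 223, 229 and 236 at 60 min. It fell 1.39-fold at 60 min (-0.47, SE 0.12, adjusted p = 0.0313 by limma), the smallest change among the 13. The other probe set of Kmt2a had means of 99.5 ± 4.81 and 103 ± 15.5 (SD, n = 3) and stood at 0.04 (95% interval -0.34 to 0.43). The call of the brighter Kmt2a probe set was lost after quantile normalization, and on leaving out one of the 0 min arrays or 60 min replicate b or c (0.0287 to 0.109). Kmt5a and Kmt5c, which methylate the tail of another core histone, stood at -0.14 and -0.06, with adjusted p of 0.43 and 0.775.

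Of 5 tested demethylases 2 (40%) fell at 60 min, beside 8.73% of all tested probe sets. Kdm6a, which removes the methyl marks laid by Polycomb, lay at 305, 303 and 291 at 0 min, at 192, 110 and 200 at 30 min and at 186, 93.1 and 194 at 60 min. Replicate b was the lowest at both treated times, and no treated array reached the 0 min range. Kdm6a fell 1.92-fold at 60 min (-0.94, SE 0.27, adjusted p = 0.0456 by limma) and stood at -0.84 at 30 min (adjusted p = 0.155), which passed without 60 min replicate b. This call was lost without each 0 min array, 30 min replicate c or 60 min replicate b, with an added constant of 1, without the filter or variance trend and after cyclic loess (0.0137 to 0.132). Kdm3a, a demethylase of repressive marks, lay at 222, 276 and 181 at 0 min, at 188, 126 and 125 at 30 min and at 148, 89.1 and 120 at 60 min. Its 30 min arrays overlapped the 0 min arrays and its 60 min arrays did not. Kdm3a fell 1.82-fold at 60 min (-0.87, SE 0.22, adjusted p = 0.0314 by limma). Leaving out each 0 min array, 60 min replicate b or c, or the filter ended this call (0.0192 to 0.119). Its relative Kdm3b stood at -0.12 (95% interval -0.44 to 0.19), the lysine demethylase Kdm1a at -0.12 (-0.45 to 0.20) and Kdm5b at -0.25 (-0.77 to 0.27).

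No histone deacetylase was called at either time. At 60 min 1 of the 6 was lower and 2 were higher by limma's unadjusted p under 0.05, which 18.4% and 14.5% of all tested probe sets met, and at 30 min 0 passed that either. Hdac2, a deacetylase of the NuRD, Sin3 and CoREST complexes, lay at 1275, 1194 and 1147 at 0 min, at 1113, 704 and 968 at 30 min and at 823, 376 and 840 at 60 min. All its treated arrays lay below the untreated ones, with 60 min replicate b the lowest. Its log2 fold change at 60 min was -0.90 (SE 0.27, 95% interval -1.51 to -0.30) with a limma adjusted p of 0.0528, which passed the threshold without 60 min replicate a or c and under 4 of the other alternatives, among them quantile normalization. The close relative Hdac1 had means of 552 ± 17.2 at 0 min and 532 ± 87.3 at 60 min (SD, n = 3) and stood at -0.06 (-0.35 to 0.22). The difference between the changes of Hdac1 and Hdac2 was not tested.

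Hdac5 and Hdac6 stood on the other side of 0. Hdac5, which shuttles between nucleus and cytoplasm, lay at 883, 839 and 867 at 0 min, at 824, 852 and 920 at 30 min and at 967, 1102 and 1121 at 60 min. Hdac6, a mainly cytoplasmic deacetylase of tubulin, lay at 489, 501 and 523, then at 550, 574 and 533, then at 588, 640 and 652. The 60 min arrays lay above the 0 min and the 30 min arrays for both. Their log2 fold changes at 60 min were 0.29 (SE 0.10, limma adjusted p = 0.0759) and 0.31 (SE 0.10, limma adjusted p = 0.0661). That of Hdac5 passed without 60 min replicate a and that of Hdac6 after scaling to the 75th percentile. Hdac3, the deacetylase of the NCoR complex, also had its 60 min arrays above its 0 min arrays and stood at 0.35 (95% interval -0.07 to 0.77), and Hdac7 stood at -0.02 (-0.27 to 0.23). Thus 3 of the 6 Hdac probe sets (50%) had all 60 min arrays above all 0 min arrays, beside 20% of all tested probe sets. All below lay 1 (16.7%), beside 20.7% of all.

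The histone readers were not called either. By unadjusted p under 0.05 at 60 min, 1 of 4 Brd and 1 of 7 Cbx probe sets were lower and 0 of each were higher, beside 18.4% and 14.5% of all, and 0 passed at 30 min. Brd7, a bromodomain subunit of SWI/SNF and the brightest tested Brd probe set, had means of 288 ± 16.4 at 0 min and 228 ± 29.8 at 60 min (SD, n = 3), a log2 fold change of -0.32 (limma adjusted p = 0.139). Brd2, which binds acetylated histones, stood at 0.05 (95% interval -0.33 to 0.42), Brd8 at -0.35 (-0.74 to 0.04) and Brd1 at 0.37 (-0.16 to 0.89). Cbx5, a heterochromatin protein, had 2 tested probe sets that stood at -0.50 and -0.60, with adjusted p of 0.141 and 0.335. With the replicate letter fitted as a block, the brighter passed (limma adjusted p = 0.0464). The brighter lay at 658, 563 and 615 at 0 min and at 558, 292 and 479 at 60 min, so that the groups did not overlap. Its relative Cbx1 stood at -0.41 (-0.92 to 0.10). Of the Polycomb readers, the 2 probe sets of Cbx2 stood at -0.30 and -0.13 and those of Cbx6 at 0.19 and 0.12, with adjusted p from 0.238 to 0.581.

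Genes with several tested probe sets gave a check within each gene. Both probe sets passed at 60 min for Smarca5 and Smarcad1, 1 of 2 passed for Kmt2a, and none passed for Cbx2, Cbx5, Cbx6 or Smarcd2. The share of members whose 60 min arrays all lay below the 0 min arrays was 38.3% (18 of 47), beside 20.7% of all tested probe sets, and the share all above was 12.8% (6 of 47), beside 20% of all. At 30 min 31.9% lay wholly below, beside 15.3% of all. For 1 probe set taken alone, permuting 3 against 3 arrays exactly gives a p of 0.1 at the lowest.

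**Figure D4:**
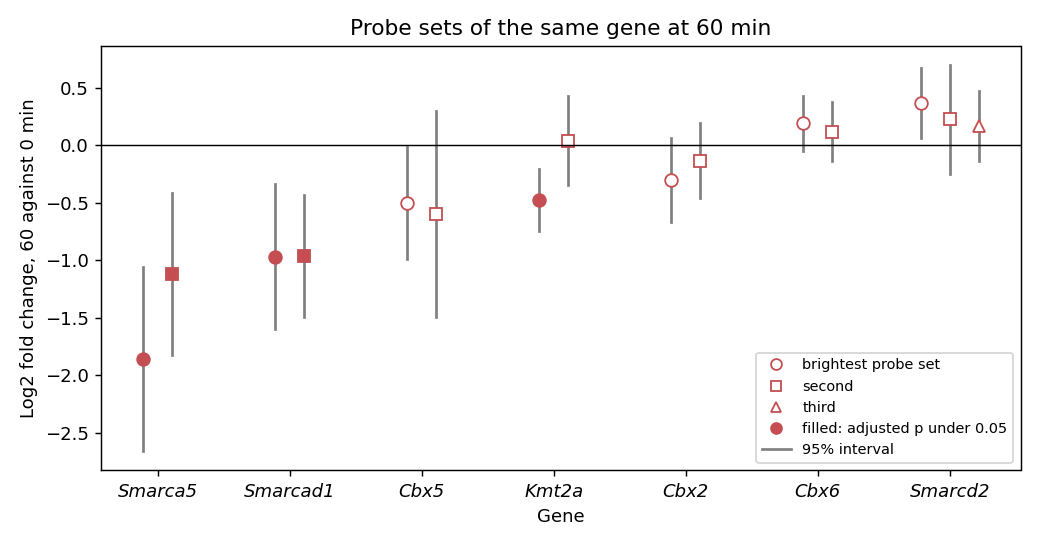
Log2 fold change at 60 against 0 min (y axis) for the 7 genes with several tested probe sets, with 95% intervals and filled symbols for an adjusted p under 0.05. Both probe sets of Smarca5 and of Smarcad1 lie below 0, and those of Kmt2a lie at -0.47 and 0.04.

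The fallen members did not fall equally on all arrays. Chosen for their 60 min values, the 13 probe sets had median deviations from their 0 min mean, on the log2 scale, of -1.02, -1.57 and -1.06 on 60 min replicates a, b and c, and 60 min replicate b was the lowest of its time for 9 of them. At 30 min the medians were -0.43, -1.35 and -0.81 on replicates a, b and c, and replicate a was the highest of its time for 10. The 688 probe sets that fell over the whole array had the same lowest array at each treated time, with medians of -0.70, -1.43 and -0.91 at 60 min and -0.38, -0.95 and -0.71 at 30 min. The members that were not called stood at medians between -0.08 and -0.03 on the 6 treated arrays. Replicate b gave the lowest medians at both treated times, and the part of such array-wide deviations in the falls was not tested.

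Partners of the members in their complexes were taken from 7 lists, in which 93 probe sets were tested. At 60 min 19 of them (20.4%, beside 8.73% of all) had fallen and 4 had risen (4.3%, beside 4.35% of all), with a median log2 fold change of -0.06. Scaling to the 75th percentile gave 19 falls and 9 rises, and testing without a filter gave 12 and 3. At 30 min limma called 0, while 30 (32.3%) had an unadjusted p under 0.05 beside 17.9% of all. Quantile normalization or a constant at the 40th percentile gave 2 calls at 30 min, and a fit of the 2 groups alone gave 5. The 23 calls at 60 min became 1, 2 and 4 when replicates a, b and c of 0 min were left out in turn, and 9 and 15 when replicates b and c of 60 min were. In the same fits 0.583%, 0.875%, 2.37%, 4.73% and 5.9% of all probe sets fell, in place of 8.73%. The calls at 30 min became 11 on leaving out 30 min replicate a and 9 on leaving out 60 min replicate b. There 3.12% and 4.96% of all probe sets fell, in place of 0.457%. For each list below, the fits with 1 array left out have the same shares over all probe sets.

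Of 12 tested probe sets of cohesin and condensin partners 5 fell and 2 rose, beside 8.73% and 4.35% of all tested probe sets. Their median was -0.16. The stricter filter left 8 of them to test, with 1 fall, 2 rises and a median of 0.37. Stag2, a cohesin subunit, fell on both its probe sets, from 685 ± 23.8 to 242 ± 45.0 (SD, n = 3; -1.47, limma adjusted p = 0.0188) and from 245 ± 23.1 to 65.9 ± 21.9 (-1.76, adjusted p = 0.0212). Nipbl, the loader of cohesin, fell from 222 ± 23.2 to 61.9 ± 23.7 (SD, n = 3; -1.72, SE 0.29, limma adjusted p = 0.00932). Nsmce1, of the complex that holds SMC6, rose (0.57) and so did Pttg1, the inhibitor of cohesin cleavage (0.41). The call of Pttg1 was lost after quantile normalization, after cyclic loess and without the filter. It was also lost without the variance trend and with the 2 groups fitted alone (limma adjusted p up to 0.159 over the alternatives). The 5 falls became 0, 1 and 2 when replicates a, b and c of 0 min were left out in turn. The 2 rises became 0 each time. In those fits 0.583%, 0.875% and 2.37% of all probe sets fell. Leaving out 60 min replicate b gave 4 falls and 1 rise, and replicate c of 30 or 60 min 5 falls and 1 rise.

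Polycomb partners, 19 tested probe sets with a median of -0.43, showed 8 falls and 0 rises at 60 min, beside 8.73% and 4.35% of all tested probe sets. The falls came from Eed, Suz12, Bmi1, Rnf2 and Mtf2, some of them through several probe sets of the same gene. Bmi1, a subunit of the complex that holds Cbx proteins, fell from 1262 ± 127 to 504 ± 242 (SD, n = 3; -1.44, limma adjusted p = 0.0326), and the brighter probe set of Suz12, of the methylating Polycomb complex, from 206 ± 12.3 to 79.1 ± 38.6 (-1.35, adjusted p = 0.0265). The 8 falls became 0, 0 and 1 when replicates a, b and c of 0 min were left out in turn. In those fits 0.583%, 0.875% and 2.37% of all probe sets fell. The 8 falls became 3 on leaving out 60 min replicate b and 5 on leaving out replicate c of 30 or 60 min. They were 4 without the filter and 5 without the variance trend.

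Of the SWI/SNF partners 4 of 14 probe sets fell and 0 rose, beside 8.73% and 4.35% of all tested probe sets. The 4 that fell were 3 of the 4 tested probe sets of Pbrm1, a subunit with many bromodomains, between -1.25 and -0.82, and that of Ss18 at -0.90 (limma adjusted p = 0.0074). The fall of Ss18 remained with any 1 array left out. The Pbrm1 calls were all lost on leaving out one of the 0 min arrays or 60 min replicate b or c, so that 1 fall was left in the list. Of 13 probe sets of ISWI, INO80 and SRCAP partners 1 fell, the helicase Hells (-1.19), and 1 rose, the ATPase Ruvbl2 (0.69). Over all tested probe sets 8.73% fell and 4.35% rose, so that 1 call each way does not set this list apart. Both calls ended on leaving out one of the 0 min arrays or 60 min replicate b, and that of Hells also on leaving out replicate c of 30 or 60 min.

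Of the corepressor partners of the deacetylases in NuRD, Sin3, NCoR and CoREST, 0 of 16 probe sets were called at 60 min (7, or 43.8%, with limma's unadjusted p under 0.05, beside 32.8% of all), with a median of 0.08. Scaling to the 75th percentile gave 4 rises in this list, and quantile normalization or cyclic loess 1 fall. The brightest, the histone chaperone gene Rbbp7, had means of 2580 ± 129 and 2171 ± 220 (SD, n = 3) and stood at -0.25 (limma adjusted p = 0.106). Among other methyltransferases 1 of 10 rose, Prmt1 at 0.59, and among acetyltransferases 1 of 9 fell, Kat2b at -0.69. Over all tested probe sets 4.35% rose and 8.73% fell, so that 1 call sets neither list apart. Both calls were lost on leaving out one of the 0 min arrays or 60 min replicate b. That of Kat2b was also lost on leaving out replicate c of 30 or 60 min and under 6 of the other alternatives, among them quantile normalization and cyclic loess. The difference between the corepressor list and the others was not tested.

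**Figure D5:**
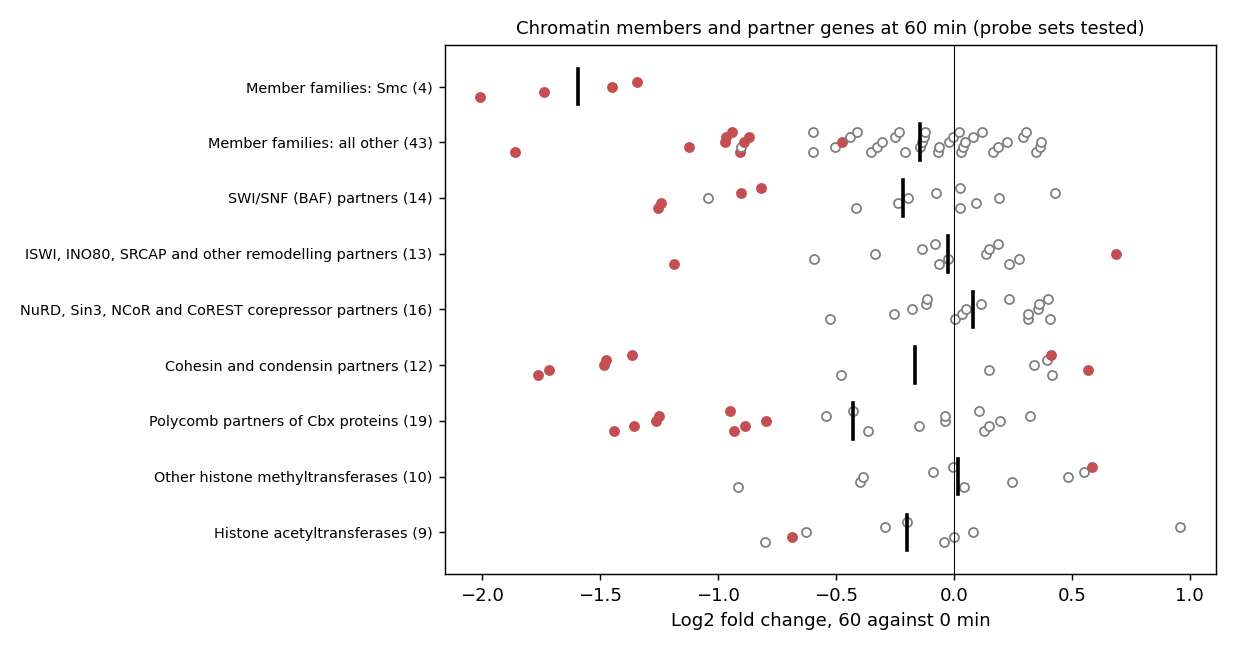
Log2 fold change at 60 against 0 min (x axis) of each tested probe set of the SMC members, the other 43 members and the 7 partner lists, with filled points for an adjusted p under 0.05, bars for medians and the number of probe sets in brackets. Filled points lie left of 0 for the Polycomb and SWI/SNF partners, on both sides for the cohesin and condensin partners, and are missing for the corepressor partners.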

How the data were processed

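Per the file itself, the authors deposited 1 linear intensity per probe set and array; how they were summarised is not given in the sources used here. Trimmed means (2% off each end) were 250.1 to 250.2 on the 9 arrays, and no further scaling was applied. The median intensities still differed, from 82.3 to 85.9 at 0 min, 76.3 to 88.5 at 30 min and 73.1 to 80.3 at 60 min. Symbols came from the platform annotation, and 2 probe sets with several symbols, 1 of them of a member family, were left out. Under R 4.3.3, limma 3.58.1 (trended eBayes, residual df 6, prior df 4.68) fitted 1 mean per time to log2(intensity + 11.8), the constant being the 20th percentile, without 66 control probe sets. It was tested on simulated data. The members and lists were chosen with earlier results of these data known.

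Named were all member probe sets that passed, in each family the brightest and the most changed at 60 min, genes whose probe sets disagreed, and up to 2 partner genes per list and direction, or the brightest where none passed. The remaining members were added after their values were seen. Alternatives were other constants, filters and scalings, no variance trend, the replicate block, 2 groups alone and each array left out. For the partner lists, all of these but the other scalings, and the CCAAT and GC boxes, were added after seeing the data. Plots used matplotlib 3.10.9 under Python 3.11.15.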

Additional observations from a re-analysis of the deposited data

How the results depend on the processing

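At 60 against 0 min the number of member calls, 13 as reported, stayed within 1.5 times under other constants, scalings, the stricter filter, no variance trend and the 2 groups alone. It became 8 without a filter and 2 to 15 with 1 array left out. The members behind the number changed. Cyclic loess and no variance trend each lost Smc2, Kdm6a, the dimmer Smarca5 and the brighter Smarcad1 probe set. Quantile normalization lost those Smarca5 and Smarcad1 probe sets and Kmt2a, and gained Hdac2. At 30 min the 3 calls became 1 without a filter, 0 without a variance trend, 6 in a fit of the 2 groups alone and 0 to 7 with 1 array left out. The 6 calls over the 3 times became 3 without a filter and 0 to 9 with 1 array left out. Between 60 and 30 min 0 members were called in every alternative run. Partner calls at 30 min, 0 as reported, were 2 after quantile normalization or with a constant at the 40th percentile, 5 with the 2 groups alone, 9 with the replicate block and 0 to 11 with 1 array left out. Those at 60 min, 23 as reported, were 15 without a filter, 30 with the replicate block and 1 to 25 with 1 array left out. No called member changed sign in an alternative that tested it; 3 of the 13 were not tested under the stricter filter. The causes were not tested. With the replicate letter as a block (replicate block), 5 members were called at 30 min, 15 at 60 min, 9 over the 3 times and 0 between 60 and 30 min. The block also brought the calls of Smarca5 and Kmt2e at 30 min, those of Cbx5 and Hdac2 at 60 min and 2 rises among the corepressor partners. Deviations of same-lettered arrays correlated between -0.128 and 0.304, and those of different letters between -0.266 and 0.179. Since not every same-lettered pair passed 0.1, the letters were not taken to pair the arrays, although the highest values were those of a and of b between 30 and 60 min (0.304 and 0.251). The number of arrays, 3 at each time, limits the precision.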
